A study of Mus musculus with 5 samples.

Results

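Autophagy genes encode the machinery that wraps part of the cytoplasm in a double membrane and delivers it to the lysosome, and mitophagy is the form of this process that removes mitochondria. The group described here was chosen by gene symbol, from names and family prefixes, and held 46 of the 24421 gene symbols in the count tables. It comprised the *Atg* genes, *Ulk1* to *Ulk3*, *Wipi1* and *Wipi2*, the LC3 and GABARAP genes, and named subunits of the initiation and lipid kinase complexes, cargo receptors, tethers and mitophagy genes. All 46 were found in every table.

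RNAseq was performed on cortical kidney tissue, flash frozen after isolation, from 3 *Fnip1* null mice, numbered 8637, 9210 and 9121, and from 2 wildtype mice, numbered 9055 and 9056, with 1 library per mouse. The *Fnip1* null mice (*Fnip1*-/-) were descended from a chemical (ENU) mutagenesis screen and carry the loss constitutively, so it was not restricted to the kidney or to a cell type. All 5 mice were labelled C57BL6J, none was labelled as treated, and neither the age nor the sex of a mouse was in the labels. The labels give the controls as *Fnip1*+/+, the study's text in places as *Fnip1*+/-, and they are called wildtype here. A figure legend of the study gives more wildtype mice for the RNAseq than the 2 analysed here. Fnip1 binds Folliculin and the energy sensor AMP kinase, and the study asked how its loss altered kidney gene expression.

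Autophagy starts when the ULK1 kinase complex is switched on, an event promoted by AMP kinase and blocked by mTORC1. A lipid kinase complex around Beclin 1 then marks the growing membrane, ATG9 vesicles and ATG2 lipid bridges supply it, and ubiquitin-like conjugation enzymes attach LC3 and GABARAP proteins to it. Cargo receptors such as p62 tie ubiquitin-tagged cargo to LC3 before the closed autophagosome fuses with the lysosome. In the kidney, proximal tubule cells and podocytes are known to depend on this process, and many of its genes can be controlled in common by the transcription factors TFEB and TFE3, which bind the E-box CACGTG. A transcript level is not a measure of autophagic flux, which depends largely on protein modification and turnover.

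Gene counts per mouse ran from 15799114 to 19132145, and the members tested had between 76 and 25670 counts in a mouse. *Fnip1* itself (chromosome 11, 54438199 to 54518235) was expressed at 21.0, 16.9 and 16.0 normalized CPM (counts per library scaled by TMM factors) in *Fnip1* null mice 8637, 9210 and 9121 and at 51.8 and 48.7 CPM in wildtype mice 9055 and 9056. The genotypes did not overlap, and *Fnip1* fell by 1.48 on the log2 scale (SE 0.138, adjusted p = 0.033). Mouse 9121 had 0.37 CPM summed over 4 Y-linked genes, against 127 to 145 CPM in the other mice, and 314 CPM of *Xist*, so it differed from the other 4 mice in sex-linked transcripts. Proximal tubule markers summed to 14522 to 26940.4 CPM in *Fnip1* null and 41394 to 46059.9 CPM in wildtype mice, with 5 of 10 lower in all *Fnip1* null mice and 2 higher, and without *Kap* to 9682 to 13353 and 14639.7 to 16799 CPM. Loop and distal nephron markers were higher in all *Fnip1* null mice in 6 of 9 genes (8460.2 to 12206 against 7899.7 to 8781 CPM). Markers were also higher for podocytes in 4 of 4 genes (642 to 754 against 357 to 361 CPM), for endothelium in 2 of 5 (252 to 337 against 140.3 to 237 CPM), for fibroblasts and smooth muscle in 5 of 6 (207 to 341 against 123 to 189 CPM) and for leukocytes in 6 of the 9 tested, with 1 lower (112 to 239 against 108 to 130.2 CPM). Adipocyte markers summed to 53.9 to 347 against 35.3 to 36.5 CPM, with 1 of the 4 tested higher in all *Fnip1* null mice. Injury markers summed to 25.4 to 30.1 against 8.87 to 15.1 CPM, with 1 of the 3 tested higher. Of all genes tested, 23.0% were lower and 22.9% higher in all *Fnip1* null mice. None of the listed markers was at 0 in all mice. The part of these cell type differences in the values below was not tested, and in whole tissue fewer cells of a type and less RNA per cell cannot be told apart.

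Relative to the other genes of the tissue, most autophagy genes had slightly lower values in *Fnip1* null than in wildtype kidney cortex, with *Optn* as the main exception, although their median difference was 0.02 above 0 on the log2 scale when libraries were scaled to their size only. Of the 46 members, 45 passed the filter on low counts. The exception, *Atg9b*, a homologue of the vesicle protein gene *Atg9a*, had 2, 8 and 6 counts in the *Fnip1* null mice 8637, 9210 and 9121 and 5 and 1 counts in the wildtype mice 9055 and 9056. With edgeR's quasi-likelihood test, 0 of the 45 members passed the threshold of the study (FDR of 5%, at least 2-fold), where 0.526% of the 13874 genes tested did, and 0 passed the FDR alone, where 0.678% of all genes did. At an unadjusted p under 0.05, 12 members passed (26.7%), close to the 25.1% of all genes. The directions were uneven: 11 of the 12 were lower in *Fnip1* null tissue (24.4% of members, against 11.2% of all genes) and 1 was higher (2.22%, against 14.0%). Among the 10742 genes expressed at or above the level of the lowest tested member, 1441 were lower and 1317 higher at this p, so their lean was the reverse of that of all genes. At an FDR of 10%, 2 members passed, *Optn* and *Wipi2*, where 6.76% of all genes did. With the other tests at an FDR of 5%, edgeR's exact and likelihood ratio tests each called 1 member (*Optn*), where they called 9.77% and 10.6% of all genes, and DESeq2 called 2 (*Optn* and *Wipi2*), where it called 10.2%.

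The differences were small. Log2 fold changes of *Fnip1* null against wildtype mice ran from -0.44 (*Atg4a*) to 0.59 (*Optn*), with a median of -0.13 over the members and 0.0035 over all genes tested. Among the 10742 genes with a mean of at least 5.8 CPM, the level of the lowest tested member, the median was -0.04. A negative log2 fold change was found for 33 members (73.3%) and a positive one for 12, where 49.5% of all genes and 56.4% of these higher expressed genes were negative. The 95% interval lay within a 2-fold change in either direction for all 45 members, compared with 70.4% of all genes and 83.7% of the higher expressed genes. Within 0.5 on the log2 scale, the counts were 30 members (66.7%), 37.8% of all genes and 48.7% of the higher expressed genes. The median SE of a log2 fold change was 0.105 for members, 0.130 for the higher expressed genes and 0.152 for all genes tested.

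**Figure D1:**
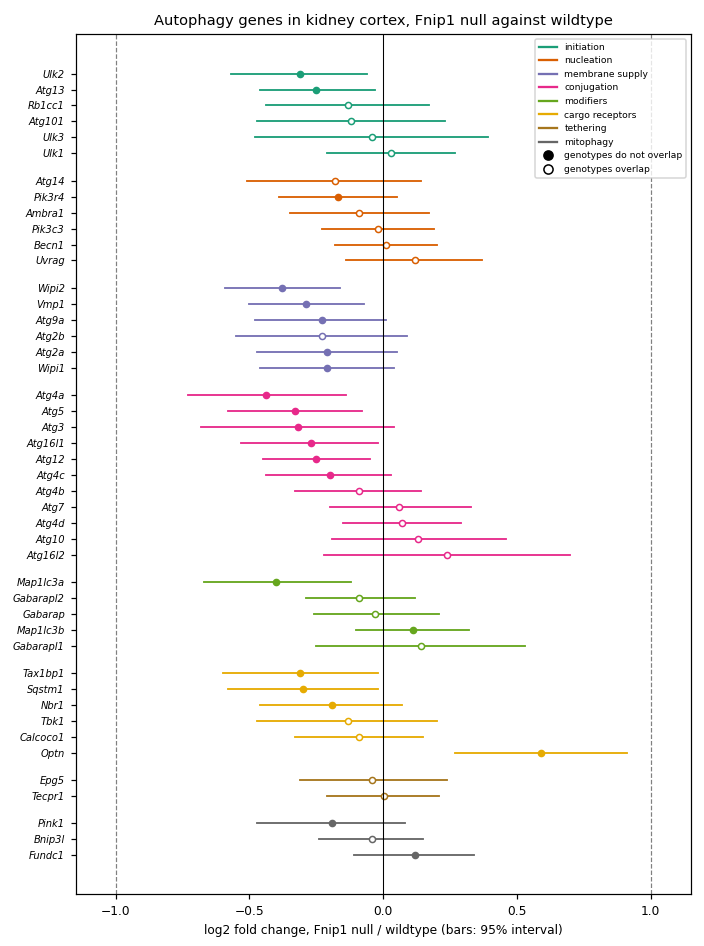
Log2 fold change of each of the 45 tested autophagy genes, *Fnip1* null over wildtype kidney cortex, on the x axis, grouped by role, with bars for the 95% interval of the edgeR fit; filled points mark genes whose genotypes did not overlap, and dashed lines mark a 2-fold change. All 45 intervals lie inside the dashed lines, 33 points are left of 0, and *Optn* at 0.59 stands apart on the right.

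In 19 members (42.2%), all 3 *Fnip1* null mice lay below both wildtype mice, where 23.0% of all genes tested and 27.0% of the higher expressed genes did. In 3 members (6.67%), *Optn*, *Map1lc3b* and *Fundc1*, all 3 lay above, where 22.9% of all genes and 19.6% of the higher expressed genes did. In the other 23 members the genotypes overlapped. Without mouse 9121, whose sex-linked transcripts differed, 23 members were lower (27.1% of all genes) and 4 higher (26.5%), and the members' median log2 fold change was -0.13.

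The sign of this shift depended on the scale. With TMM or RLE normalization the members' median log2 fold change was -0.13, with upper quartile normalization -0.07, and with scaling to library size only 0.02, while the median of all genes tested was 0.0035, 0.0041, 0.07 and 0.17 in the same order. Relative to the median of all genes, 34 of the 45 members were lower under each of these 4 scalings. A scaling factor moves all genes of a library alike, so this count could hardly differ between scalings and is not a separate check in each. With library size only, 21 members had a negative log2 fold change, 10 members (22.2%, against 11.4% of all genes) did not overlap on the lower side and 13 (28.9%, against 37.2%) on the higher side. Lower levels of autophagy genes were therefore measured relative to the other genes of the tissue, and each direction given below is on the TMM scale.

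**Figure D2:**
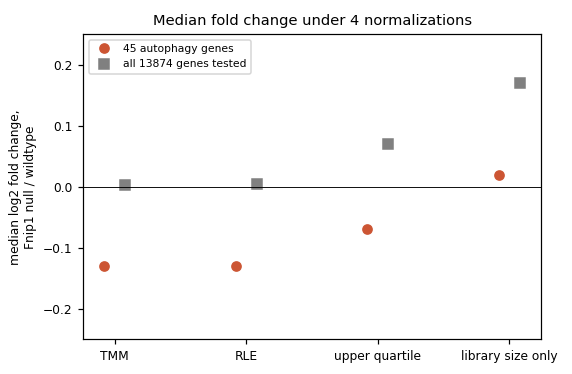
Median log2 fold change, *Fnip1* null over wildtype, on the y axis, for the 45 autophagy genes (circles) and all 13874 genes tested (squares) under 4 normalizations. The members' median is below that of all genes in each, by 0.14 to 0.15, and is below 0 except with library size only, where it is 0.02. A change of scaling moves both medians nearly alike, so the distance between them is almost fixed.

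The mice of a genotype differed. The median deviation of the members from the wildtype mean on the log2 scale was -0.06 for mouse 8637, -0.19 for 9210 and -0.15 for 9121, and for wildtype mice 9055 and 9056 it was -0.03 and 0.03. Mouse 8637 was thus nearest to the wildtype mice, and among the 19 members that were lower in all *Fnip1* null mice it was the highest of the 3 in 14. Wildtype mouse 9056 had the highest level of the 5 mice in 22 members, and *Fnip1* null mouse 9121 the lowest in 18 and the highest in 9. Summed over members, expression was 5391, 5203 and 5385 CPM in the *Fnip1* null mice, in the same order, and 5512 and 5909 CPM in the wildtype mice. Without mouse 8637, 8 of the 45 members passed an FDR of 5%, where 20.0% of all genes did. Of these 8, *Atg2b*, *Atg4a*, *Atg5*, *Map1lc3a*, *Tax1bp1*, *Ulk2* and *Wipi2* were lower and *Optn* was higher.

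**Figure D3:**
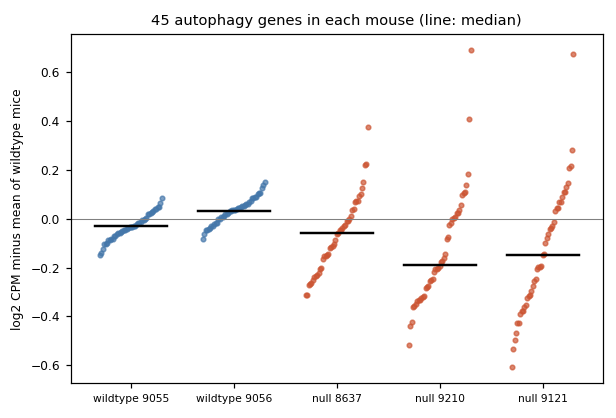
Deviation of each of the 45 tested autophagy genes from the mean of the wildtype mice, in log2 CPM on the y axis, with 1 point per gene in each mouse and a line at the median. The medians of mice 9210 (-0.19) and 9121 (-0.15) lie below those of mouse 8637 (-0.06) and of wildtype mice 9055 (-0.03) and 9056 (0.03), and the highest point in mice 9210 and 9121 is *Optn*.

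The initiation complex consists of a ULK kinase with Atg13, Atg101 and the scaffold encoded by *Rb1cc1* (FIP200). Expression of *Ulk1*, the kinase that AMP kinase and mTORC1 phosphorylate, was 109, 98.7 and 93.0 CPM in *Fnip1* null mice 8637, 9210 and 9121 and 101 and 95.5 CPM in wildtype mice 9055 and 9056. The genotypes overlapped, with a log2 fold change of 0.03 (95% interval -0.21 to 0.27, adjusted p = 0.885), whose sign turned when mouse 8637 or 9056 was left out. Its paralogue *Ulk2* was expressed at 68.4, 60.0 and 57.1 CPM in the *Fnip1* null mice, in the same order, and at 75.0 and 78.6 CPM in the wildtype mice. All *Fnip1* null mice were lower, with a log2 fold change of -0.31 (SE 0.104, 95% interval -0.57 to -0.06, adjusted p = 0.143). Without mouse 8637 the adjusted p of *Ulk2* was 0.0303, and over 14 alternative settings it ran from 0.0303 to 0.587. Of the remaining 4 genes, *Atg13* (-0.25) was also lower in all *Fnip1* null mice, and *Atg101*, *Rb1cc1* and *Ulk3*, a ULK kinase with a role in Hedgehog signalling, overlapped, with log2 fold changes from -0.13 to -0.04.

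The nucleation complex makes phosphatidylinositol 3-phosphate, with *Pik3c3* encoding the lipid kinase VPS34 and *Pik3r4* its subunit VPS15. *Becn1*, which encodes the core subunit Beclin 1, showed nearly the same expression in every mouse, with 97.3, 100.4 and 102 CPM in *Fnip1* null mice 8637, 9210 and 9121 and 97.7 and 100.2 CPM in wildtype mice 9055 and 9056. Its log2 fold change was 0.01 (95% interval -0.18 to 0.20, adjusted p = 0.925), and its sign turned without mouse 9055 or 9121. Exons of *Becn1* overlap those of *Cntd1* on the other strand over 3104 bases, and the strand setting of the counting was not given in the sources used here. Of the 5 other members, *Pik3r4* (-0.17) was lower in all *Fnip1* null mice. The kinase gene *Pik3c3* (-0.02), the autophagy-specific subunit gene *Atg14* (-0.18), the alternative subunit gene *Uvrag* (0.12) and the Beclin 1 regulator *Ambra1* (-0.09) overlapped between genotypes.

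Genes of membrane supply and of proteins that read phosphatidylinositol 3-phosphate had lower values in *Fnip1* null tissue. All 6 tested had a negative log2 fold change, from -0.38 to -0.21 (49.5% of all genes and 56.4% of the higher expressed genes were negative), and 5 were lower in all *Fnip1* null mice (23.0% of all genes). *Wipi2* (chromosome 5, 142627698 to 142670588), whose product binds this lipid and recruits Atg16l1, was expressed at 122, 118 and 109.6 CPM in *Fnip1* null mice 8637, 9210 and 9121 and at 146 and 157 CPM in wildtype mice 9055 and 9056. The gap between the genotypes exceeded the range within either, and the log2 fold change was -0.38 (SE 0.0904, 95% interval -0.59 to -0.16, adjusted p = 0.0948). DESeq2 gave *Wipi2* an adjusted p of 0.0257, and over 14 alternatives the adjusted p ran from 0.0257 to 0.564.

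*Vmp1*, which encodes a lipid scramblase of the endoplasmic reticulum needed for autophagosome formation, was expressed at 107, 112 and 108 CPM in *Fnip1* null mice 8637, 9210 and 9121 and at 125 and 141 CPM in wildtype mice 9055 and 9056. The *Fnip1* null mice lay close together below the wildtype mice, with a log2 fold change of -0.29 (SE 0.0898, 95% interval -0.50 to -0.07, adjusted p = 0.131), and the exons of *Vmp1* share 92 bases with the microRNA gene *Mir21a*. *Atg9a*, which encodes the transmembrane protein of the vesicles that seed the membrane, had 85.3, 77.5 and 72.1 CPM in the *Fnip1* null mice, in the same order, and 89.7 and 94.6 CPM in the wildtype mice. The genotypes did not overlap, but the interval of the log2 fold change of -0.23 reached from -0.48 to 0.01 (adjusted p = 0.209). The lipid transfer genes *Atg2a* (-0.21) and *Atg2b* (-0.23) and the lipid reader *Wipi1* (-0.21) had differences of similar size, and only *Atg2b* of these overlapped, since mouse 8637, at 52.6 CPM, lay between the wildtype mice.

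The conjugation machinery divided by gene. It holds the E1-like enzyme gene *Atg7*, the E2-like enzyme genes *Atg3* and *Atg10*, the complex of Atg12, Atg5 and Atg16l1 that sets where LC3 is attached, and the Atg4 proteases that trim LC3. Of its 11 members, 7 had a negative log2 fold change and 4 a positive one, with 6 lower (23.0% of all genes) and 0 higher (22.9% of all genes) in all *Fnip1* null mice. *Atg4a*, on the X chromosome (140956907 to 141164270), had the lowest log2 fold change of all members. Its expression was 26.3, 22.2 and 21.9 CPM in *Fnip1* null mice 8637, 9210 and 9121 and 32.8 and 30.7 CPM in wildtype mice 9055 and 9056. The log2 fold change was -0.44 (SE 0.122, 95% interval -0.73 to -0.14, adjusted p = 0.111) with all mice and -0.39 without mouse 9121, and its adjusted p over 14 alternatives ran from 0.0248, without mouse 8637, to 0.547.

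Each of the 3 genes of the Atg12, Atg5 and Atg16l1 complex was lower in all *Fnip1* null mice. Of all genes tested 23.0% were, and of the higher expressed genes 27.0%. *Atg5* was expressed at 44.6, 41.4 and 38.9 CPM in *Fnip1* null mice 8637, 9210 and 9121 and at 49.8 and 54.9 CPM in wildtype mice 9055 and 9056. Its log2 fold change was -0.33 (SE 0.102, 95% interval -0.58 to -0.08, adjusted p = 0.128), and over 14 alternatives its adjusted p ran from 0.0455, without mouse 8637, to 0.587. *Atg12* had 68.3, 70.6 and 69.3 CPM against 78.9 and 85.7 CPM, in the same order of mice, with a log2 fold change of -0.25 (SE 0.0832, 95% interval -0.45 to -0.05, adjusted p = 0.146). *Atg16l1* had 34.9, 31.0 and 30.0 CPM against 39.1 and 38.1 CPM, with a log2 fold change of -0.27 (SE 0.105, 95% interval -0.53 to -0.02, adjusted p = 0.178). The spread among the *Fnip1* null mice was narrow for *Atg12* and wider for the other two, where mouse 8637 was the highest of the 3.

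The enzymes that activate and carry the modifiers differed from each other. *Atg3*, the E2-like enzyme gene for LC3, had 53.6, 48.1 and 38.2 CPM in *Fnip1* null mice 8637, 9210 and 9121 and 56.8 and 59.7 CPM in wildtype mice 9055 and 9056. Mouse 9121 was far below the others, and the log2 fold change of -0.32 (SE 0.150, 95% interval -0.68 to 0.04, adjusted p = 0.24) became -0.20 without it. *Atg7*, by contrast, had 33.1, 30.5 and 34.0 CPM against 29.2 and 33.0 CPM, in the same order. The genotypes overlapped, with a log2 fold change of 0.06 (95% interval -0.20 to 0.33, adjusted p = 0.741), whose sign turned without mouse 9055. Of the other members, *Atg4c* (-0.20) was lower in all *Fnip1* null mice, while *Atg4b* (-0.09), *Atg4d* (0.07), *Atg10* (0.13) and *Atg16l2* (0.24), an *Atg16l1* paralogue at 4.72 to 6.90 CPM, overlapped.

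Promoters of the members were searched for the E-box CACGTG, which reads the same on both strands, because TFEB and TFE3 bind it in promoters of lysosomal and autophagy genes. RefSeq promoters (GRCm38.p6, 300 bases around an annotated transcript start, most of them before it) were matched for 38 of the 46 members, with 44 promoters in all. The motif was found in 5 of the 38 genes (13.2%), against 8.09% of 27025 genes, and the longer TCACGTGA, which contains CACGTG, in 1 of 38 (2.63%), against 1.12% of all genes. The sites are shown, on the strand of the gene and with CACGTG in capitals, to set the motif beside the levels of the genes that carry it.
*Atg5* (chr10:44268315-44268340, + strand): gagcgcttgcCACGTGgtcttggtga
*Atg3* (chr16:45158725-45158750, + strand): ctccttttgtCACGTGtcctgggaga
*Atg3* (chr16:45158748-45158773, + strand, within TCACGTGA): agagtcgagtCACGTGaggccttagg
*Atg7* (chr6:114670954-114670979, + strand): tattggtggtCACGTGtgcagtaagt
*Atg14* (chr14:47568420-47568445, - strand): aacaaaatccCACGTGactggccctg
*Tbk1* (chr10:121586774-121586799, - strand): cgcactcggtCACGTGctccgtggcc

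Of these 5 genes, *Atg3* and *Atg5* were lower in all *Fnip1* null mice, and *Atg7*, *Atg14* and *Tbk1* overlapped. Their median log2 fold change was -0.18, and that of the 32 tested members whose matched promoter lacked the motif was -0.11, with 14 of the 32 lower in all *Fnip1* null mice, where 23.0% of all genes and 27.0% of the higher expressed genes were. The sites of *Atg7* and *Atg14* lie at starts inside the annotated genes, whose outer starts are at 114643097 on chromosome 6 and at 47570649 on chromosome 14. Counts are per gene and do not separate transcripts by their start. A match is a description of the letters, and binding was not measured.

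The ubiquitin-like modifiers become linked to the autophagosome membrane, where they recruit cargo receptors. *Map1lc3a* and *Map1lc3b*, which encode LC3A and LC3B, lay on opposite sides of the wildtype mice. *Map1lc3a* (chromosome 2, 155276297 to 155278073) was expressed at 67.5, 59.2 and 56.9 CPM in *Fnip1* null mice 8637, 9210 and 9121 and at 74.6 and 86.3 CPM in wildtype mice 9055 and 9056. All *Fnip1* null mice were lower, with a log2 fold change of -0.40 (SE 0.114, 95% interval -0.67 to -0.12, adjusted p = 0.117), and its adjusted p over 14 alternatives ran from 0.0286, without mouse 8637, to 0.586. *Map1lc3b* was expressed at 240.4, 247 and 253 CPM in the *Fnip1* null mice and at 224 and 234 CPM in the wildtype mice. All *Fnip1* null mice were slightly higher, with a log2 fold change of 0.11 (95% interval -0.10 to 0.32, adjusted p = 0.468). The difference between these 2 genes was not itself tested.

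The GABARAP genes overlapped between genotypes. *Gabarap* had 291, 308 and 297 CPM in *Fnip1* null mice 8637, 9210 and 9121 and 286 and 321 CPM in wildtype mice 9055 and 9056, with a log2 fold change of -0.03 (95% interval -0.26 to 0.21, adjusted p = 0.893) on the TMM scale and 0.14 with library size only. *Gabarapl1* (chromosome 6, 129533160 to 129542346) had 1147, 1195 and 1355 CPM against 1039 and 1199.8 CPM, in the same order. Mouse 9121 was the highest and wildtype mouse 9055 the lowest, and the log2 fold change was 0.14 (95% interval -0.25 to 0.53, adjusted p = 0.613). Its exons share 570 bases with *1700101I11Rik* on the other strand. *Gabarapl2* (-0.09) had 102 to 112 CPM in the *Fnip1* null and 112 and 115 CPM in the wildtype mice.

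Per exon length, in RPKM (CPM divided by exon length), *Gabarapl1* was the most abundant member, with a mean of 589.7 RPKM over the 5 mice. It was followed by *Sqstm1* (174), *Gabarap* (163) and *Pink1* (146), and then by *Map1lc3a* (58.3), *Gabarapl2* (47.0), *Nbr1* (39.9), *Bnip3l* (37.0), *Tax1bp1* (36.4) and *Map1lc3b* (31.9). The order of *Sqstm1* and *Gabarap* differed between mice, since *Sqstm1* was higher in wildtype mice 9055 (190.4 against 155 RPKM) and 9056 (202 against 174 RPKM) and in mouse 8637 (170.2 against 158 RPKM), and *Gabarap* was higher in mice 9210 (167 against 157 RPKM) and 9121 (161 against 149.7 RPKM). *Pink1*, at 129.7 to 164 RPKM, overlapped both. The lowest were *Atg16l2* (0.685) and *Atg9b* (0.0648). Among the 5 modifiers, *Gabarapl1* made up 66.2%, 66.6% and 70.0% of the summed RPKM for *Fnip1* null mice 8637, 9210 and 9121, compared with 63.5% and 64.5% for wildtype mice 9055 and 9056. *Map1lc3a* made up 6.64%, 5.62% and 5.01% against 7.78% and 7.91%. These shares did not overlap between genotypes, with *Gabarapl1* higher and *Map1lc3a* lower in *Fnip1* null tissue, and the smallest p that an exact permutation test of a share can give in this design is 0.1. *Gabarap* made up 16.7% to 18.8% against 18.9% and 19.1%, also lower without overlap, by a narrow margin. *Gabarapl2* made up 4.72% to 5.39% against 5.34% and 5.91%, and *Map1lc3b* 3.49% to 3.72% against 3.37% and 3.67%, and both overlapped. The shares are parts of a common sum, so a rise in any of them lowers the rest. Exon lengths were the union of annotated exons, so a gene expressed mainly as a short transcript has a higher level per base than given here.

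**Figure D4:**
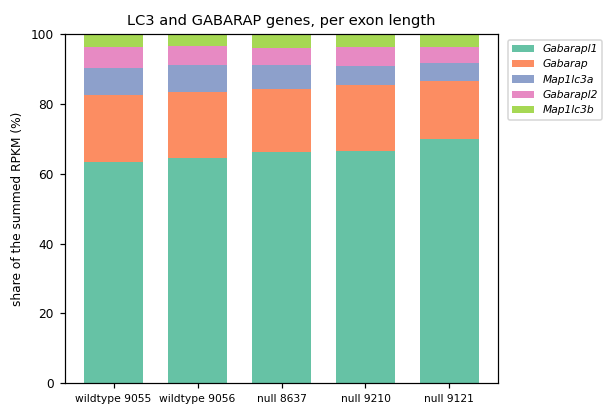
Share of each of the 5 LC3 and GABARAP genes in their summed RPKM, in percent on the y axis, with 1 stacked bar per mouse. *Gabarapl1* takes 63.5% to 64.5% in the wildtype and 66.2% to 70.0% in the *Fnip1* null mice, and *Map1lc3a* 7.78% to 7.91% and 5.01% to 6.64%.

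Cargo receptors held both the largest positive difference and several of the lower genes. *Optn* (chromosome 2, 5020642 to 5064051), which encodes optineurin, a receptor for damaged mitochondria and intracellular bacteria that works with the kinase Tbk1, was expressed at 26.4, 32.8 and 32.5 CPM in *Fnip1* null mice 8637, 9210 and 9121 and at 19.9 and 20.8 CPM in wildtype mice 9055 and 9056. All *Fnip1* null mice were higher, with means of 30.5 ± 3.59 (SD, n = 3) and 20.3 ± 0.624 (SD, n = 2) CPM. The log2 fold change was 0.59 (SE 0.133, 95% interval 0.27 to 0.91), an increase of 50.3%, with an adjusted p of 0.0858 by the quasi-likelihood test. *Optn* passed an FDR of 5% with edgeR's exact test (adjusted p = 0.0172), its likelihood ratio test (adjusted p = 0.0161) and DESeq2 (adjusted p = 0.0158). It also passed with the quasi-likelihood test without mouse 8637 (adjusted p = 0.012), where 20.0% of all genes did. Over 14 alternatives the log2 fold change of *Optn* stayed between 0.53 and 0.76, and its adjusted p ran from 0.012 to 0.536. An antisense gene shares 73 bases of its exons.

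*Sqstm1* (chromosome 11, 50199366 to 50210827), which encodes the receptor p62, was expressed at 571, 528 and 502 CPM in *Fnip1* null mice 8637, 9210 and 9121 and at 639 and 679 CPM in wildtype mice 9055 and 9056. It was lower in all *Fnip1* null mice, with a log2 fold change of -0.30 (SE 0.116, 95% interval -0.58 to -0.02, adjusted p = 0.176). *Tax1bp1*, which encodes a receptor that acts with p62 and *Nbr1*, had 370.2, 307 and 316 CPM against 394 and 429 CPM, in the same order. The *Fnip1* null mice were again lower, with mouse 8637 close to wildtype mouse 9055, and the log2 fold change was -0.31 (SE 0.121, 95% interval -0.60 to -0.02, adjusted p = 0.178). Its adjusted p over 14 alternatives ran from 0.0348, without mouse 8637, to 0.635.

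*Tbk1*, the kinase that phosphorylates optineurin and p62, did not share the direction of *Optn*. Its expression was 43.3, 36.7 and 33.2 CPM in *Fnip1* null mice 8637, 9210 and 9121 and 43.8 and 39.0 CPM in wildtype mice 9055 and 9056. The genotypes overlapped, and the log2 fold change was -0.13 (95% interval -0.47 to 0.20, adjusted p = 0.564) on the TMM scale and 0.02 with library size only. The receptor gene *Nbr1* (-0.19) was lower in all *Fnip1* null mice, at 244 to 289 CPM against 296 and 297 CPM, and *Calcoco1* (-0.09), which encodes a receptor for the endoplasmic reticulum, overlapped.

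**Figure D5:**
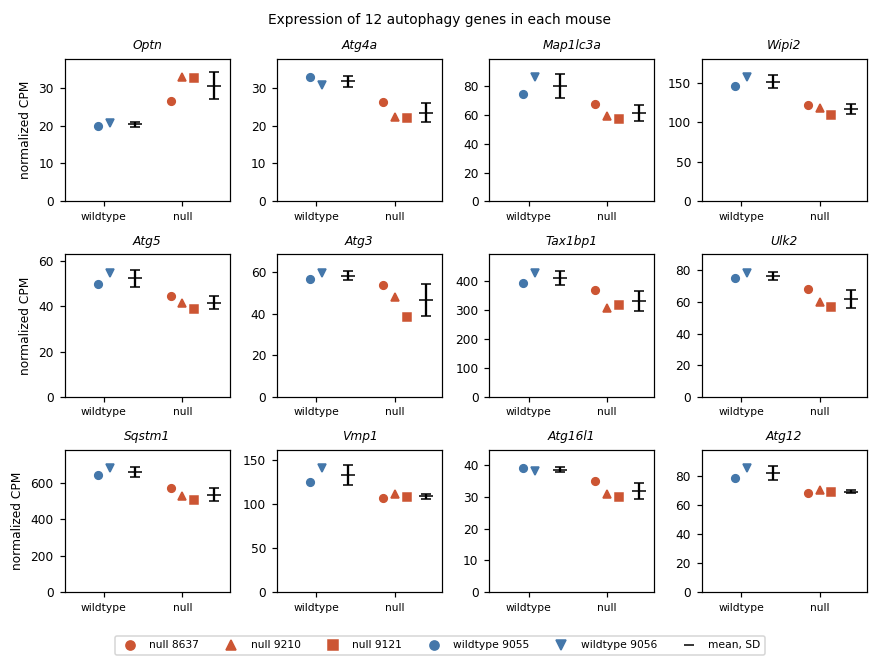
Normalized CPM of the 12 autophagy genes with the largest absolute log2 fold change among those whose genotypes did not overlap, on a y axis from 0 in each panel, with 1 point per mouse and the mean and SD beside the points. *Optn* is higher in the 3 *Fnip1* null mice (26.4 to 32.8 CPM) than in the 2 wildtype mice (19.9 and 20.8 CPM), and the other 11 genes are lower.

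Neither tethering gene differed between genotypes beyond its spread. *Epg5*, a tether of autophagosomes to lysosomes, had a log2 fold change of -0.04 (95% interval -0.31 to 0.24), and *Tecpr1*, which binds lysosomes and the conjugate of Atg12 and Atg5, of 0.0012 (95% interval -0.21 to 0.21). *Tecpr1* lay between 38.0 and 39.7 CPM in all 5 mice.

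The mitophagy genes of the list showed small differences in both directions. *Pink1*, which encodes the kinase that accumulates on damaged mitochondria, was expressed at 358, 347 and 405 CPM in *Fnip1* null mice 8637, 9210 and 9121 and at 406 and 439.6 CPM in wildtype mice 9055 and 9056. All *Fnip1* null mice were lower, mouse 9121 by a narrow margin, with a log2 fold change of -0.19 (95% interval -0.47 to 0.08, adjusted p = 0.331). *Bnip3l*, which encodes the mitochondrial receptor NIX, had 141, 138 and 144 CPM against 142 and 149 CPM, in the same order. The genotypes overlapped, with a log2 fold change of -0.04 (95% interval -0.24 to 0.15, adjusted p = 0.764) on the TMM scale and 0.12 with library size only, and a pseudogene of *Bnip3l* may share its reads. The receptor gene *Fundc1*, on the X chromosome, had 30.4 to 30.8 CPM in the *Fnip1* null and 27.8 and 28.7 CPM in the wildtype mice, with a log2 fold change of 0.12 (95% interval -0.11 to 0.34).

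A list of 55 other genes of the pathway, outside the rule, was examined for comparison. Of these, 54 were found and 53 tested, and 0 passed an FDR of 5% with the quasi-likelihood test (0.678% of all genes). At that FDR, edgeR's exact and likelihood ratio tests called 0 of the 53 (9.77% and 10.6% of all genes), DESeq2 called 1, *Vamp8* (10.2%), and the quasi-likelihood test without mouse 8637 called 2, *Vamp8* and *Snap29* (20.0%), so each called fewer of the list than its share of all genes. At an unadjusted p under 0.05, 6 passed, all lower in *Fnip1* null tissue (11.3% of those tested, against 11.2% of all genes in that direction). Their median log2 fold change was -0.07, with 38 negative and 15 positive. In all *Fnip1* null mice, 16 of the 53 were lower (23.0% of all genes and 27.0% of the higher expressed genes). In the same sense 3 were higher (22.9% and 19.6%). *Vamp8* and *Snap29*, which encode SNARE proteins of autophagosome fusion, were among the 6. *Vamp8* had 142, 133 and 139 CPM in *Fnip1* null mice 8637, 9210 and 9121 and 165 and 182 CPM in wildtype mice 9055 and 9056 (log2 fold change -0.33, SE 0.0885, adjusted p = 0.104). *Snap29* had 72.1, 63.2 and 60.8 CPM against 82.8 and 81.7 CPM (log2 fold change -0.33, SE 0.101, adjusted p = 0.127). Their partner *Stx17* (-0.07) overlapped, as did the mitophagy genes *Bnip3* (-0.01) and *Park2* (0.08), which encodes the ubiquitin ligase Parkin. The lowest and highest log2 fold changes of the list were those of *Stbd1*, a glycogen receptor gene (-0.53, adjusted p = 0.105), and *Trim30a* (0.69, 95% interval -0.19 to 1.56), whose genotypes overlapped.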

How the data were processed

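RNAseq libraries (TruSeq, paired-end) were made from the cortical kidney tissue of each mouse. The authors filtered reads for quality, aligned them to mm10 with TopHat2 2.1.0 and ran HTSeq 0.6.1 to count reads per gene symbol, and the deposited counts are not normalized. Reads that HTSeq assigned to no gene (9.91% to 10.8% of records), to more than 1 gene (0.741% to 0.803%) or to more than 1 place (28.3% to 31.4%) were left out, so a gene that shares exons or has a close copy can be undercounted. The replicates were separate mice, and no pair agreed within sampling noise.

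The analysis used edgeR 4.0.16 and limma 3.58.1 (R 4.3.3), with TMM factors between 0.914 and 1.09. Genes under 10 counts in at least 3 mice were removed, which left 13874 genes, and genotypes were compared with the quasi-likelihood test and Benjamini-Hochberg adjustment over these genes. Unless another test is named, each adjusted p is from this fit, and "lower" or "higher" in all *Fnip1* null mice means that their CPM did not overlap that of the wildtype mice. At these depths 3 counts correspond to 0.158 to 0.186 CPM. Intervals are 95% intervals from the fit, and errors of means are SD. GENCODE M21 (GRCm38) gave the coordinates and, as the union of exons, the lengths behind RPKM. Values per mouse are given for members past an FDR of 5%, for the 12 members with the largest absolute log2 fold change among those with at least 1 CPM whose genotypes did not overlap, and for 15 defining members. *Stbd1*, *Vamp8*, *Snap29*, *Stx17* and *Trim30a* were named after their values were seen. Members and lists were chosen with earlier results of these data known. The alternatives were other normalizations, filters, thresholds and tests (edgeR's exact, likelihood ratio and legacy quasi-likelihood tests, and DESeq2 1.42.0) and leaving out each mouse. The number of mouse 9210 in its label differs by exchanged digits from that on its count table, and the label was used.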

Additional observations from a re-analysis of the deposited data

How the results depend on the processing

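With 3 mice against 2, the quasi-likelihood test leaves 3 degrees of freedom for the spread between mice, and without a wildtype mouse the other, on its own, is assumed to vary like the *Fnip1* null mice. The number of members past an FDR of 5% and 2-fold change was 0 in every alternative that kept both wildtype mice. It was 2 at an FDR of 10% with no fold change threshold. Without mouse 9210, 0 of all genes tested passed an FDR of 5%, so that fit could call no member. The largest log2 fold change of a named member in any alternative was 0.76 (*Optn*), short of 2-fold. With 1 wildtype mouse left, a fit cannot decide whether a member passes. The upper end of each adjusted p range above is from the fit without mouse 9056, so it says little about the gene itself. Apart from that of *Wipi2*, the lower end of each range is from the fit without mouse 8637, the *Fnip1* null mouse nearest to wildtype. In that fit 20.0% of all genes passed an FDR of 5%, against 0.678% with all mice, so passing there is not particular to a gene. The median log2 fold change of the members was 0.02 with library size only, against -0.13 with TMM, and -0.17 to -0.12 when 1 mouse was left out. The number of members whose genotypes did not overlap was 25 to 31 (55.6% to 68.9%) when 1 mouse was left out, where 50.7% to 68.4% of all genes did not, and 22 (48.9%) with all mice, where 45.9% of all genes did not, so in either direction together the members were near all genes.

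*Fnip1* had a log2 fold change of -1.60 to -1.40 when 1 mouse was left out. Its adjusted p was 0.126 without mouse 9210, a fit in which 0 of all genes tested passed an FDR of 5%. The fits without mouse 9055 or 9056 keep 1 wildtype mouse and cannot decide whether *Fnip1* passes. Among 308 comparisons of the 22 named members with their alternatives, 286 kept their direction and side of an FDR of 5%, 11 kept the direction and newly passed that FDR, without reaching a 2-fold change, and 11 turned direction, in 6 genes. With library size only, *Gabarap* (0.14), *Tbk1* (0.02) and *Bnip3l* (0.12) turned positive, and with upper quartile normalization *Gabarap* (0.04) and *Bnip3l* (0.02). When 1 mouse was left out, the log2 fold change ran from -0.03 to 0.08 for *Ulk1*, from -0.0036 to 0.04 for *Becn1*, from -0.02 to 0.16 for *Atg7* and from -0.11 to 0.06 for *Gabarap*. No paired analysis was possible because the mouse numbers are not shared between genotypes. The cause of these changes was not tested.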
